A study of Mus musculus with 4 samples.

Results

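The Platr and Snhg long noncoding RNAs were taken by symbol from the allele-resolved expression table of hybrid mouse embryonic stem cells (ESCs). Every listed gene named Platr or Snhg with a number was taken, together with Gas5, Dancr, Tug1 and Lncenc1. This gave 32 of 24026 genes, of which 16 were Snhg genes, 12 were Platr genes and 4 were the genes taken by name. The rule used symbols and no measured value, but it was set with earlier results of these data known.

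The study profiled genome contacts with nucleoli and measured RNA in several mouse lines, and the RNA values described here come from the untreated F123-ESCs. F123-ESC is a male line from an F1 cross with S129 as the maternal genome and CAST as the paternal genome. All 4 libraries were of this 1 line and 1 condition. Cells were grown on feeder fibroblasts with LIF, moved to feeder-free plates for at least 2 passages and harvested after about 48 h. With 1 line and no reciprocal cross, an effect of strain and an effect of parental origin cannot be told apart. The labels do not say whether the libraries came from separate cultures, so the p-values measure the spread between these libraries, which may be technical.

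Snhg genes are small nucleolar RNA (snoRNA) host genes. Their introns release snoRNAs, which guide the chemical modification of ribosomal RNA in the nucleolus, and the spliced exons leave as a long noncoding RNA. Gas5 is of the same kind, and several of these hosts are known to start with the pyrimidine tract that also opens ribosomal protein mRNAs. Platr genes are pluripotency-associated transcripts, named for their presence in ESCs and their loss on differentiation. Lncenc1 is likewise named for its expression in ESCs, Dancr for a block to differentiation, and Tug1 for its induction by taurine in the retina.

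The polyadenylated RNA gave between 34120416 and 56627972 allele-assigned reads per library, with replicate 4 the shallowest and replicate 1 the deepest. Levels are RPKM, given by the authors for each allele. In these values, reads were scaled by transcript length and by the reads of that allele in the library (28772351 for S129 and 27855621 for CAST in replicate 1). Each read had to carry a base that differs between S129 and CAST, so the level of a gene also depends on how many such bases its transcript holds. The 8 ESC markers (such as Nanog and Sox2) were all listed above 1 RPKM, with summed levels of 7812 to 9478 RPKM per library. Dppa5a alone gave 6225 to 8159 RPKM of that sum. The others ran from 29.5 RPKM (Pou5f1) to 583 RPKM (Tfcp2l1), with Nanog at 84.5 and Sox2 at 125 RPKM. Of the 7 feeder fibroblast markers 5 reached 1 RPKM, Col1a2 led them at 166 RPKM, and the sum was 178 to 224 RPKM, while Dcn and Lum stood at 0.659 and 0.0462 RPKM. The primitive endoderm list summed to 5.72 to 6.59 RPKM with 3 of 5 genes above 1 RPKM. The neural list had 1 of 4 genes above 1 RPKM (Nes, at 76.2 RPKM, with Olig2 at 0) and summed to 68.2 to 85.1 RPKM. The part of feeder RNA in the values below was not tested, and in bulk RNA fewer cells of a type and less RNA per cell cannot be told apart.

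The structure of the genes separated the families. All 14 Snhg genes found by symbol in the GENCODE M21 annotation (mm10) held at least 1 snoRNA or small Cajal body RNA (scaRNA) gene on their strand, as did Gas5. None of the 12 Platr genes, Lncenc1 or Tug1 held one. Dancr and Snhg4 could not be assessed, because their identifiers are not in this annotation. Snhg14 held 208 of them, Gas5 10, Snhg1 8 and Snhg12 5. Of the 40 such entries outside Snhg14, 12 had a row in the expression table. These counts include a Snora43 entry inside the interval of the Snhg7 row, which is not among the 14, and overlapping entries of Snord80 and Snora16a. A snoRNA of the box C/D kind is recognised by its C box and its D box. The box C/D snoRNA genes of Gas5, Snhg12 and Snhg6 that had values are shown here as examples of what the host genes hold. The sequences are those of the GENCODE M21 transcripts, with a C box core (TGATGA, first match) and the last D box (CTGA) in capitals. They lie at chr1:161038082-161038158 (plus strand), chr4:132310691-132310764 (plus strand) and chr1:9942463-9942549 (minus strand), all in mm10.
Snord47 in Gas5: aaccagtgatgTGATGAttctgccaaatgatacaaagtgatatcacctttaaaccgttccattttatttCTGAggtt
Snord99 in Snhg12: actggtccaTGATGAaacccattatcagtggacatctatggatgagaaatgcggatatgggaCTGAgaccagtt
Snord87 in Snhg6: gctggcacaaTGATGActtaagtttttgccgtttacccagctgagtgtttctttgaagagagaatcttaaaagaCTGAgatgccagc

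The transcription starts differed in letters too. RefSeq (GRCm38.p6) gave a promoter for 29 of the 32 genes, in 32 entries. A C followed by at least 4 more C or T letters, on the transcribed strand and beginning within 5 bases of the start, was present in 7 of 15 Snhg entries (46.7%) and in 1 of 12 Platr entries. Over all 32851 promoters the share was 18.3%, and over 74 ribosomal protein gene entries 41.9%. The letters TATAAA, on the transcribed strand between 40 and 15 bases before the start, were present in 3 of 15 Snhg entries (Snhg5, Snhg7 and Snhg8), in none of the Platr entries and in 1.99% of all promoters. A match of letters is a description and not a site of known function.

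The stretches below run from 40 bases before the start to 20 bases from it, and are shown to let the starts of host genes with such a tract be read beside those of ESC transcripts without one. Capitals mark the pyrimidine run and TATAAA. They are from chr1:161035126-161035185 (Gas5, plus strand, the second of its RefSeq starts), chr4:132308638-132308697 (Snhg12, plus), chr3:123508317-123508376 (Snhg8, minus), chr2:26640225-26640284 (Snhg7, minus), chr13:97434930-97434989 (Lncenc1, plus) and chr2:104559419-104559478 (Platr14, plus).
Gas5: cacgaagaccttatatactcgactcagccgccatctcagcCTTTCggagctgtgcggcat
Snhg12: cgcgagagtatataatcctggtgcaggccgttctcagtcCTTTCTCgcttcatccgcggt
Snhg8: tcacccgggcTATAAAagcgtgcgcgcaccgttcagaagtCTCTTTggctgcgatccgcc
Snhg7: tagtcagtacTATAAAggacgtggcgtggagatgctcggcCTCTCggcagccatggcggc
Lncenc1: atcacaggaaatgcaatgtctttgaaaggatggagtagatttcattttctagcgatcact
Platr14: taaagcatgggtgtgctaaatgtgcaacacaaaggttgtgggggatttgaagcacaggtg

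Members of both families were present in these cells at levels that spanned more than 4 orders of magnitude. Of the 32 genes, 30 (93.8%) had a mean level of at least 1 RPKM, against 49.7% of all 24026 genes, and 14 had at least 100 RPKM, against 4.2% of all genes. All 16 Snhg genes and 10 of the 12 Platr genes passed 1 RPKM. The lower limit was set by Platr9, which was listed at 0 on both alleles in every library, and by Platr30. A count of 0 reads for Platr9 allows up to 0.0102 RPKM over all 4 libraries, for a transcript length of 1556 bp. This limit holds for allele-assigned reads only. Whether Platr9 carries a base that differs between the alleles was not tested, and without one it would be at 0 at any level. Platr30 rested on 25 reads in all and stood at 0.0677 ± 0.0291 RPKM (SD, n = 4).

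Gas5 was the highest member. Its level was 1661, 1500, 1441 and 1951 RPKM in replicates 1 to 4, with a mean of 1638 ± 228 RPKM (SD, n = 4), and it ranked 69th of all genes. Snhg3, which holds the Snora73a and Snora73b genes, followed at 1133 ± 138 RPKM, and Snhg5, host of Snord50a and Snord50b, at 977 ± 63.6 RPKM. Snhg3 was above Snhg5 in every library, but their ranges overlapped, from 978 to 1313 RPKM for Snhg3 and from 935 to 1070 RPKM for Snhg5. Gas5 did not overlap with either.

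Below them came Snhg12 (722 ± 78.4 RPKM), Snhg7 (635 ± 31.9 RPKM), Snhg1 (607 ± 47.5 RPKM), Snhg8 (508 ± 77 RPKM) and Snhg15 (359 ± 31.4 RPKM). Snhg12 overlapped Snhg7 in range, Snhg7 overlapped Snhg1 and Snhg1 overlapped Snhg8. Snhg12 (643 to 816 RPKM) and Snhg8 (428 to 581 RPKM) did not overlap, and Snhg15 stood below Snhg8 in all libraries with no overlap. The Snhg7 level is uncertain, because its identifier is that of the snoRNA gene Snora43 in GENCODE M21 and its RPKM was computed with the 139 bp of that gene. Another Snora43 entry, of 127 bp and inside that interval, was listed at 0 in every library. Snhg6 (158 ± 23.3 RPKM) and Snhg20 (114 ± 23.4 RPKM) were next among the hosts.

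A second group of hosts was low. Snhg4 had 60.1 ± 2.94 RPKM, Snhg10 38 ± 2.51 RPKM and Snhg17 19.3 ± 0.467 RPKM, the last with the smallest spread of all members (coefficient of variation 2.43%). Snhg14, Snhg9, Snhg18 and Snhg11 lay between 4.56 and 10.6 RPKM. Snhg9 rested on 20 to 49 reads per allele and library, so its 20% coefficient of variation includes much counting error.

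Among the ESC transcripts, Platr14 was the highest, at 220, 226, 210 and 217 RPKM in replicates 1 to 4 (218 ± 6.61 RPKM). Platr5 (171 ± 29 RPKM) and Platr10 (170 ± 11.2 RPKM) were indistinguishable, with each above the other in 2 of 4 libraries. Platr4 stood at 65 ± 1.63 RPKM and Platr7 at 28 ± 1.14 RPKM. The remaining detected Platr genes were low, with 8.76 ± 0.982 RPKM for Platr26, 6.41 ± 0.874 RPKM for Platr20, 5.11 ± 0.41 RPKM for Platr22, 3.68 ± 0.218 RPKM for Platr21 and 1.23 ± 0.233 RPKM for Platr8. Of the genes taken by name, Lncenc1 had 103 ± 8.34 RPKM, Dancr 59.1 ± 5.59 RPKM and Tug1 10.9 ± 0.557 RPKM.

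**Figure D1:**
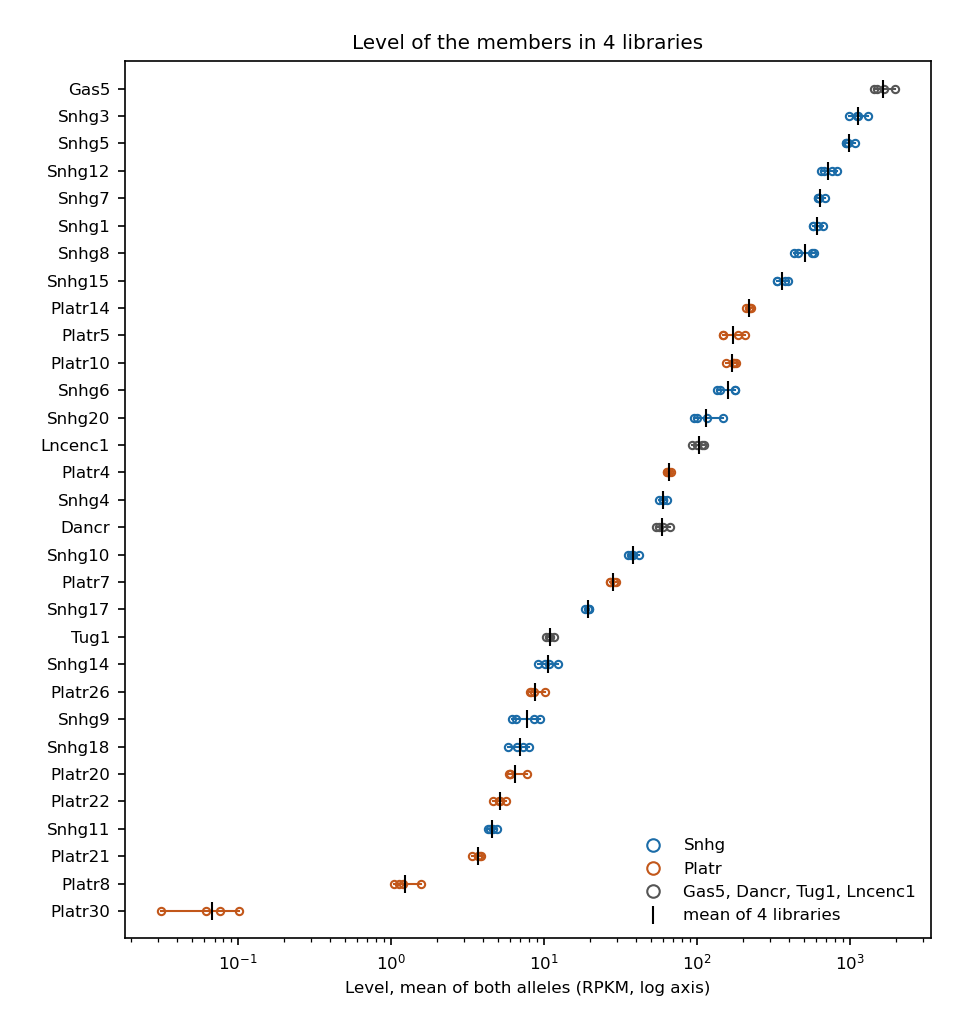
Level of the 31 members above 0, as the mean of both alleles in RPKM on a log axis. Circles are the 4 libraries, lines join the lowest and the highest, and black ticks are means. Gas5 is at the top with 1638 RPKM and Platr30 at the bottom with 0.0677 RPKM. The 8 genes from Gas5 to Snhg15 lie above every Platr gene at these lengths. With all exons as length, which for Snhg1 is the whole gene with introns, Platr5 (143 RPKM) is above Snhg1.

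The median level of the Snhg genes was 147, 114, 121 and 162 RPKM in replicates 1 to 4, and that of the Platr genes 8.1, 7.08, 7.9 and 7.26 RPKM. The hosts were thus higher in all 4 libraries, by 4.14 ± 0.24 on the log2 scale of RPKM + 0.1 (SD, n = 4). The two-sided exact sign-flip permutation test over libraries gave p = 0.125, which is the smallest p that 4 libraries allow. Transcript length bears on this comparison, since most RPKM values used the length of 1 annotated transcript, with a median of 560 bp for the Snhg genes and 1026 bp for the Platr genes. With the length of all annotated exons together, the Snhg median was 62.7 RPKM and the difference 3.10 ± 0.13. The gap also narrowed to 2.87 when the 2 Platr genes under 0.1 RPKM were left out.

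The rank of a host depended on that length. In Snhg1 (2969 bp), Snhg12 (2402 bp) and Snhg8 (853 bp), all annotated exons together covered the whole gene, introns of other transcripts included. For Gas5 they covered 3760 bp, against the 712 bp used. Such a length can exceed that of the spliced RNA, which would make the RPKM of these hosts too low. With all exons together, Gas5 fell from 1638 to 310 RPKM, Snhg5 stood at 441 RPKM, Snhg3 at 382 RPKM, Snhg1 at 124 RPKM and Snhg12 at 109 RPKM, so that Gas5 was no longer the highest member. Platr5, at 143 RPKM, then stood above Snhg1. Its order with Snhg12 is uncertain, because the length behind the Snhg12 value was the smallest that gave whole reads. The uncertain Snhg7 row, whose length did not change, was the highest at 635 RPKM. Snhg14, whose exons cover 26093 bp in all against the 3708 bp used, went from 10.6 to 1.51 RPKM. Platr14 went from 218 to 80.4 RPKM and Platr4 from 65 to 12.6 RPKM.

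The snoRNA and other small RNA genes inside the hosts had their own values, some above and some below that of the host. The highest was Scarna13, a scaRNA gene inside Snhg10, at 5521 ± 918 RPKM against 38 RPKM for its host. Snord99 and Snora61, inside Snhg12, stood at 460 ± 46.2 and 269 ± 54.1 RPKM against 722 RPKM for the host, and Snora16a in the same gene at 29.8 ± 3.31 RPKM. Snord87, inside Snhg6, had 60.2 ± 6.59 RPKM against 158 RPKM, and the miRNA gene Mir6516, inside Snhg20, 354 ± 97.4 RPKM against 114 RPKM. Mir6516 overlaps the scaRNA gene Gm26083 on the same strand, which has no row of its own, so its reads may belong to that scaRNA. Snord47, inside the far more abundant Gas5, had 17.6 ± 1.21 RPKM. Snord22 in Snhg1, Snora44 in Snhg12 and Snora24 in Snhg8 were listed at 0, as would be any gene without a base that differs between the alleles. Reads came from polyadenylated RNA in fragments of about 260 bp, so a read over a snoRNA gene of 71 to 137 bp may belong to unspliced host RNA. In Snhg12, Snhg1 and Snhg8 such a gene also lies within an annotated exon of some host transcript. These sources and the small RNA itself cannot be told apart here.

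The comparison that the design offers is between the 2 alleles of each library. Differences are given as S129 minus CAST on the log2 scale of RPKM + 0.1, which understates the change of low genes, and a gene was called when limma gave an adjusted p under 0.05 over all 13341 genes tested. Of the 32 members, 30 had enough signal to be tested, all but Platr9 and Platr30. S129 was the higher allele for 14 and CAST for 10, against 31.4% and 31.3% of all genes tested. Together 24 of 30 were called (80%), against 62.7% of all genes tested. On the autosomes 23 of 29 members were called, against 61.4% of the autosomal genes. The alleles did not overlap over the 4 libraries for 22 members, against 45.6% of all genes tested. The median size of the difference was 0.63 among the members, 0.31 among all genes tested and 0.76 among the 1077 tested genes that are not protein-coding, of which 55.1% were called.

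The calls were spread over both families and directions. Of the 16 Snhg genes 7 were higher on S129, 6 on CAST and 3 were not called. Of the 10 tested Platr genes 6 were higher on S129, 2 on CAST and 2 were not called. A difference of at least 2-fold was called for 6 members towards S129 and for 4 towards CAST, against 9.55% and 5.43% of all genes tested. Without the X chromosome these were 5 and 4 of 29 members, against 6.29% and 5.63% of 12871 autosomal genes. Among the tested genes that are not protein-coding the shares were 23.9% and 7.8%.

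**Figure D2:**
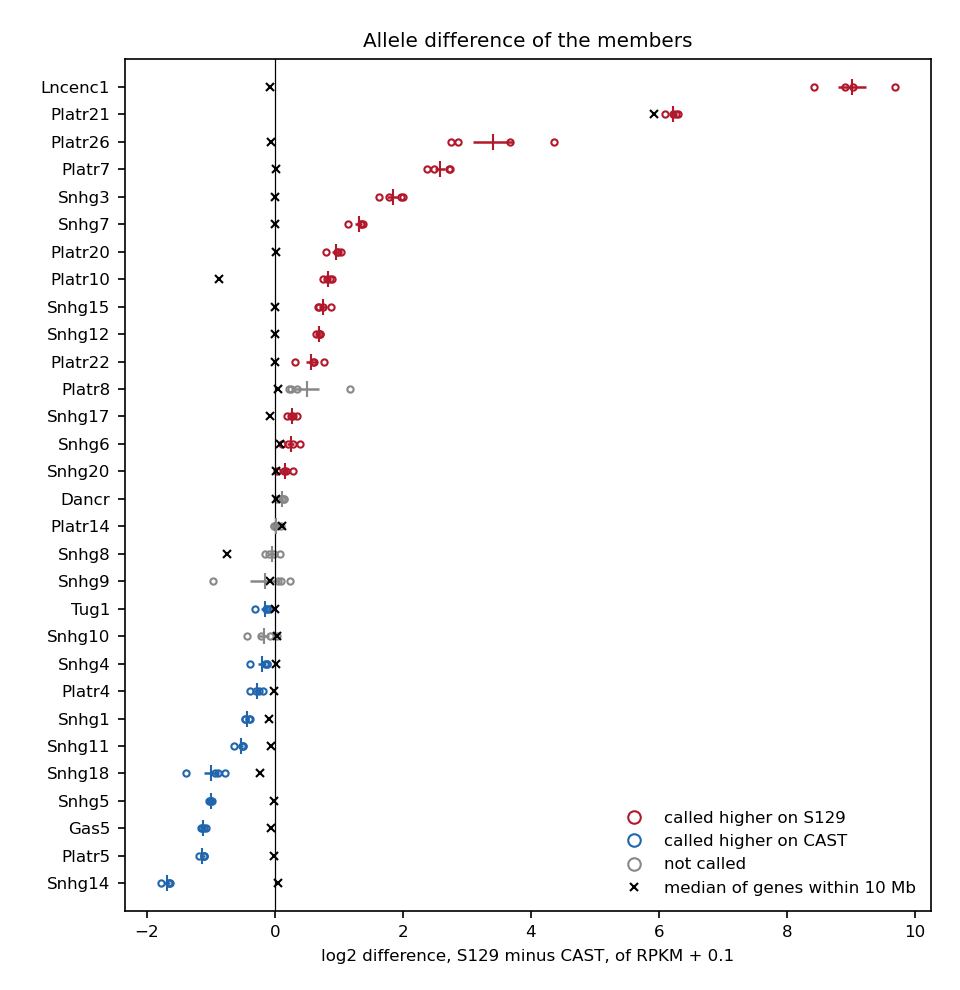
Allele difference of the 30 tested members, as S129 minus CAST in log2 of RPKM + 0.1. Circles are the 4 libraries, ticks with bars are the mean and its SE, and crosses are the median of the genes within 10 Mb; Lncenc1 lies at 9.01 with its region near 0, whereas the X-linked Platr21 lies at 6.22, a value set by the pseudocount, beside a region at 5.93.

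Lncenc1 was expressed almost wholly from the S129 allele. Its S129 level was 199, 216, 222 and 185 RPKM in replicates 1 to 4, and its CAST level 0.316, 0.313, 0.171 and 0.439 RPKM. The difference was 9.01 ± 0.22 (SE, adjusted p = 1.96e-05), and 7.30 with a pseudocount of 1. The CAST allele had 24, 21, 11 and 20 reads, against 8778 to 15631 on S129, and 0.14% of all reads (95% Wilson interval 0.112% to 0.175%, which covers counting error only).

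A background for such a share is given by the X chromosome, since a male line has no CAST copy of it. Reads of 1058 X-linked genes were assigned to CAST at 0.112% to 0.132% per library. The Lncenc1 share was 0.153%, 0.139%, 0.0739% and 0.227%, and the intervals of replicates 1, 2 and 3 held the X-linked share of the same library while that of replicate 4 (0.147% to 0.351%) lay above its 0.132%. The gene lies on chromosome 13 at chr13:97434970-97497007, where the 85 tested genes within 10 Mb had a median difference of -0.081. The nearest protein-coding start was that of Enc1, an actin-binding protein gene 193865 bp away, with 0.45 ± 0.034 (adjusted p = 0.000594).

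Platr21 is the only X-linked member (chrX:139240226-139357738), so the line has no CAST copy of it. It had 2480 reads on S129 and none on CAST, which allows a CAST share of up to 0.121%. Its log2 difference is set by the pseudocount, at 6.22 with 0.1, 3.06 with 1 and 9.52 with 0.01. Its level on S129 was 7.55, 6.75, 7.37 and 7.76 RPKM in replicates 1 to 4. Trap1a, an X-linked protein-coding neighbour 24055 bp from it, was likewise far higher on S129 (8.17 ± 0.046).

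Platr26 and Platr7 were the autosomal Platr genes with the strongest skew. Platr26 (chr2:71719417-71730966) had 19, 14.4, 15.5 and 15.1 RPKM on S129 and 1.4, 1.9, 0.66 and 2.15 RPKM on CAST in replicates 1 to 4. Its difference was 3.41 ± 0.31 (adjusted p = 0.00103), on 10 to 30 CAST reads per library. Itga6, the integrin gene with the nearest start, differed by 0.17 ± 0.035.

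Platr7 (chr10:84547417-84553338) had 46.9, 51.2, 48.3 and 45.5 RPKM on S129 and 7.05, 7.55, 8.57 and 8.7 RPKM on CAST. S129 gave 86.4% of its reads and the difference was 2.58 ± 0.08 (adjusted p = 4.15e-05). Ckap4, a protein-coding gene that starts 19276 bp away on the same strand, differed in the same direction by 1.27 ± 0.032 (adjusted p = 2.20e-05). Platr7 exceeded it in all 4 libraries, by 1.31 ± 0.16 (SD).

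The other Platr genes were skewed less. Platr5 was the only one with a 2-fold call towards CAST, with 117, 92.9, 93.4 and 125 RPKM on S129 and 253, 201, 201 and 286 RPKM on CAST (-1.13 ± 0.033, adjusted p = 3.48e-05). Platr20 (0.95 ± 0.051), Platr10 (0.83 ± 0.038) and Platr22 (0.57 ± 0.082) were higher on S129, and Platr4 (-0.28 ± 0.045) on CAST. Platr14, the highest of the family, was balanced within its spread, at 0.022 ± 0.035 with each allele higher in 2 libraries. Platr8 was higher on S129 in all 4 libraries but not called (0.50 ± 0.19, adjusted p = 0.0779), and on 21 to 52 reads per allele its replicate 4, at 1.17, stood apart from 0.22 to 0.34 in the others. Without replicate 4 its difference was 0.27 and was called (adjusted p = 0.0126).

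Among the snoRNA hosts, Snhg3 (chr4:132348014-132353686) was skewed most towards S129. It had 2093, 1513, 1776 and 1709 RPKM on S129 and 533, 442, 444 and 557 RPKM on CAST in replicates 1 to 4, with no overlap. The difference was 1.84 ± 0.08 (adjusted p = 0.00011), and S129 gave 79.1% of 72344 reads. The Snhg7 row followed at 1.31 ± 0.054. This ratio does not depend on the length, but as the row carries the identifier of Snora43, it may be that of the snoRNA interval and not of the host transcript. Snhg15 (0.75 ± 0.048), Snhg12 (0.69 ± 0.03) and Snhg17 (0.27 ± 0.04) were also called towards S129, as were Snhg6 (0.25 ± 0.056) and Snhg20 (0.16 ± 0.052, adjusted p = 0.0488), whose alleles overlapped. The last 2 were near the threshold. Snhg20 was not called without replicate 1, 2 or 3 (0.12, 0.16 and 0.17, adjusted p = 0.125 to 0.141), and Snhg6 not without replicate 2 (0.24, adjusted p = 0.0721) or 3 (0.20, adjusted p = 0.0543).

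On the CAST side the strongest hosts were Snhg14, Gas5 and Snhg5. Gas5 (chr1:161034422-161038539) had 1037, 952, 923 and 1212 RPKM on S129 and 2285, 2048, 1959 and 2690 RPKM on CAST in replicates 1 to 4, so that the alleles were far apart in each library. The difference was -1.12 ± 0.031 (adjusted p = 2.98e-05) on 215966 reads. Snhg5 was alike, with 620 to 709 RPKM on S129 and 1248 to 1431 RPKM on CAST (2.01-fold, adjusted p = 3.39e-05).

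Snhg18 had 4.22 to 4.98 RPKM on S129 and 7.33 to 11.5 RPKM on CAST (just under 2-fold, adjusted p = 0.00196). Snhg11 (-0.53 ± 0.038), annotated as protein-coding in GENCODE M21, and Snhg1 (-0.43 ± 0.032) were smaller. Tug1 (-0.16 ± 0.05, adjusted p = 0.0442) and Snhg4 (-0.20 ± 0.062, adjusted p = 0.0476) were at the edge of the threshold, and so was Dancr, which was not called (0.11 ± 0.035, adjusted p = 0.05002). With 1 library left out, Tug1 lay between -0.19 and -0.11 and was not called in any of the 4 cases (adjusted p = 0.0766 to 0.104). Snhg4 was not called without replicate 1, 2 or 3 (-0.22 to -0.21, adjusted p = 0.0865 to 0.108) and was at -0.13 without replicate 4, and Dancr was called without replicate 4 (0.13, adjusted p = 0.0391). With reads not divided by the allele total, Tug1 (-0.11, adjusted p = 0.124) and Snhg4 (-0.14, adjusted p = 0.111) were not called. On that scale Dancr was called (0.17, adjusted p = 0.015). Snhg8, Snhg9 and Snhg10 were not called, with differences of -0.049, -0.15 and -0.17.

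Snhg14 hosts the Snord115 and Snord116 arrays of the imprinted Snrpn to Ube3a region and is known to be transcribed from the paternal chromosome, here CAST. It lies at chr7:59307924-59975759 and had 5.92, 4.94, 5.13 and 4.09 RPKM on S129 and 18.9, 15.5, 16.3 and 14.2 RPKM on CAST (-1.68 ± 0.039, adjusted p = 1.77e-05), and S129 gave 24.4% of its reads (Wilson interval 23.5% to 25.4%). Its exons overlap those of Ube3a on the opposite strand over 1803 bp. Ube3a stood at 16.8 RPKM with a difference of -0.046, and because the strand setting of the counting is not stated, reads of the overlap cannot be told apart.

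In 2 autosomal places the genes around a member were themselves shifted by more than 0.5. On chromosome 3, the 46 tested genes within 10 Mb of Platr10 had a median difference of -0.87, and the 73 around Snhg8 had -0.75. Platr10, at 0.83, was therefore 1.70 above its region. Snhg8, at -0.049 and not called, was 0.70 above its own, and passed the test on that scale (adjusted p = 0.000656). The regional median was subtracted as a fixed value. Such a p-value thus measures the spread of the member between libraries and not that of the genes around it. Platr4, on another stretch of the same chromosome, lay in a region with a median of -0.0089. Relative to their regions 13 members were higher on S129 and 10 on CAST, against 29.5% and 29.5% of the genes tested in this way.

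Several members start next to a protein-coding gene, which allowed the 2 to be read side by side in the same libraries. Snhg1 and Slc3a2, the heavy chain of an amino acid transporter, start 106 bp apart on opposite strands, and differed by -0.43 and -0.50. Snhg18 and Sema5a, a semaphorin gene, start 148 bp apart, and Sema5a was at -0.82 ± 0.12, from which Snhg18 differed by less than its spread (-0.18 ± 0.3, SD). Tug1 and Morc2a (482 bp) had -0.16 and -0.031, with 483 bp of exon shared on opposite strands whose reads cannot be told apart without the strand setting, and Snhg10 and Glrx5 (409 bp) -0.17 and -0.10.

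In other pairs the skew differed in size or direction. Gas5 starts 427 bp from Zbtb37, which was called in the same direction (-0.25 ± 0.046, adjusted p = 0.00907) at a level of 0.543 RPKM. Gas5 was further towards CAST in all 4 libraries, by 0.79 to 0.93 on the log2 scale (its difference minus that of Zbtb37 was -0.87 ± 0.061, SD). Snhg3 starts 81 bp from Rcc1, on the same strand and with 135 bp of shared exon, and Rcc1 differed by 0.11 ± 0.044 (adjusted p = 0.0881), so that Snhg3 exceeded it by 1.73 ± 0.1. Snhg17 and Snhg11 start 14058 bp apart on chromosome 2 and differed in opposite directions, 0.27 against -0.53. Snhg3 exceeded Snhg12, which is also on chromosome 4, by 1.16 ± 0.19.

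The values of the small RNA genes inside a host could be read by allele as well. In Snhg12, Snord99 (0.94 ± 0.068) and Snora61 (1.27 ± 0.04) were higher on S129, as was the host at 0.69, while Snora16a was at -0.34 and not called (adjusted p = 0.0835, 768 reads). In Gas5, Snord47 was higher on S129 in all 4 libraries (21.7, 21.2, 21.2 and 23.9 RPKM against 12.1, 11.6, 17 and 12.4 RPKM on CAST), with a difference of 0.74 ± 0.12 (adjusted p = 0.00682), whereas the host was at -1.12. Snord47 rested on 257 reads, and Gas5 minus Snord47 was -1.86 ± 0.31 (SD). Scarna13 (0.27 ± 0.03, adjusted p = 0.00182) was likewise higher on S129 while its host Snhg10 was not called.

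In all, 13 such pairs were compared, most of them picked with their values known. A pair kept the same sign in all 4 libraries in 10 cases, each with p = 0.125 by the two-sided exact sign-flip permutation test (Benjamini-Hochberg 0.163), the smallest p that 4 libraries allow. The exceptions were Snhg18 with Sema5a (-0.18 ± 0.3), Tug1 with Morc2a (-0.13 ± 0.17) and Snhg10 with Glrx5 (-0.073 ± 0.27).

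**Figure D3:**
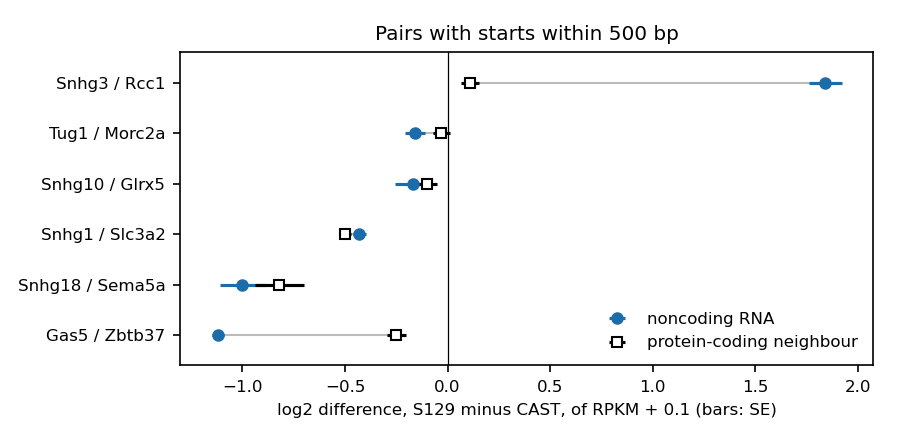
Allele difference (S129 minus CAST, log2 of RPKM + 0.1) of 6 noncoding RNAs, as filled circles, and of the protein-coding gene that starts within 500 bp, as open squares, with SE bars over 4 libraries. Snhg1, Snhg18, Snhg10 and Tug1 lie near their neighbour, and Gas5 (-1.12 against -0.25) and Snhg3 (1.84 against 0.11) lie apart from it.

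The level of the hosts varied between libraries in a shared way. Replicates 1 and 4 were the 2 highest libraries for 12 of the 16 Snhg genes and for Gas5 and Dancr, and for 4 of the 10 Platr genes above 1 RPKM. Among all 11946 genes above 1 RPKM this held for 11.7%. For 78 ribosomal protein genes (Rpl, Rps, Rplp and Rpsa symbols) it held for 74.4%. Genes with a length under 1000 bp, without the members and the ribosomal protein genes, had a share of 29.3%, and genes of 1000 bp or more 6.81%.

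The size of this shift was small. In log2, the summed level of replicates 1 and 4 over that of replicates 2 and 3 had a median of 0.19 among the Snhg genes and 0.062 among the Platr genes, against -0.13 for all genes and 0.23 for the ribosomal protein genes. It was 0.49 for Snhg9, 0.43 for Snhg20, 0.38 for Snhg8 and 0.30 for Gas5, and -0.19 for Lncenc1. Platr5 was the Platr gene with the largest shift, at 0.41. The number of members with replicates 1 and 4 highest was 18 of 30 in the deposited values, 24 when libraries were scaled by their median ratio and 9 when they were scaled to 1 sum of RPKM, against 24.6% and 5.59% of all genes under the same 2 scalings. Replicates 1 and 4 are the deepest and the shallowest library, and as all libraries are of 1 condition, there was no group to test.

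**Figure D4:**
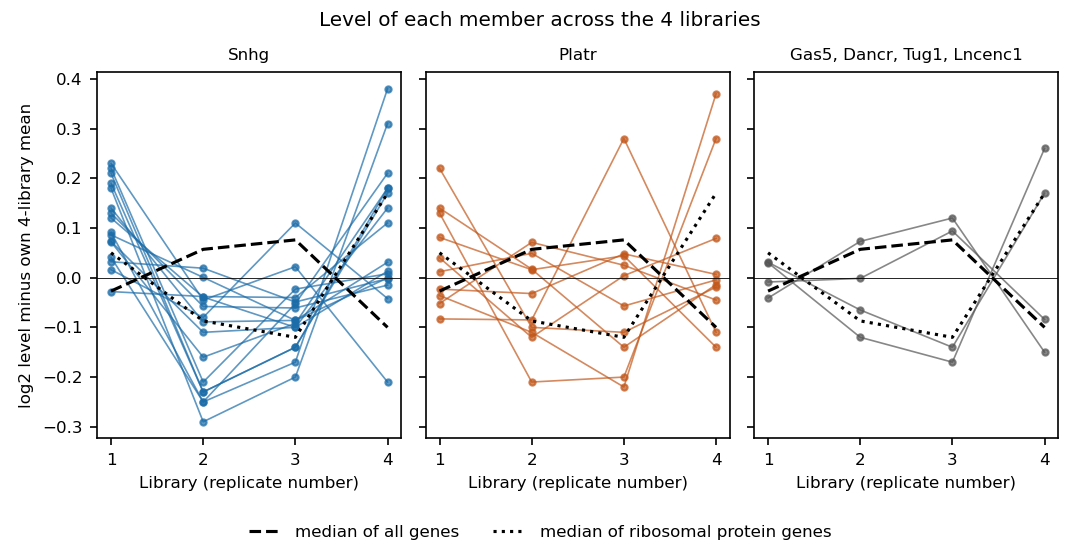
Level of each of the 30 members above 1 RPKM in the 4 libraries, in log2 relative to the gene's own mean over libraries; lines only join the values of a gene. The dashed line is the median of all genes above 1 RPKM and the dotted line that of 78 ribosomal protein genes, and 12 of 16 Snhg genes have replicates 1 and 4 as the highest, as the dotted line does.

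Other noncoding RNAs and snoRNA hosts gave a frame for these values. Of 19 further long noncoding RNAs, 17 were listed and 15 tested, and 13 were higher on S129 and 1 on CAST. The shares of all genes tested were 31.4% and 31.3%. Among the 1077 tested genes that are not protein-coding, 398 were higher on S129 and 195 on CAST. The single one towards CAST was Zfas1, itself a snoRNA host, at -0.46 ± 0.033. Those towards S129 included the X-linked Xist, Tsix, Firre and Ftx, whose direction was fixed because the male line has no CAST copy. They also included the imprinted Meg3, Rian and Mirg (1.73 to 2.17). The imprinted H19 (0.14, at 1049 RPKM) and Kcnq1ot1 (-0.046, not called) were near balance. Of 12 protein-coding hosts of snoRNAs, with a median level of 1829 RPKM, 4 were higher on S129 and 5 on CAST. The shares of all genes tested given above apply here too.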

How the data were processed

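Per the study's methods, polyadenylated RNA was sequenced with a stranded kit as paired reads of 150 bp, ribosomal reads were removed (SortMeRNA), reads were trimmed (Trimmomatic 0.40, per the labels) and aligned with STAR to mm10 masked at strain variants, and SNPsplit sorted them by allele. The authors deposited RPKM per gene, allele and library. Counter, strand setting and annotation are not given in the sources used here. The authors' columns of mean RPKM per allele and of log10(mean RPKM + 1) were not used.

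The read totals and, for 99.5% of 20243 genes above 0, the whole reads behind the RPKM (within 0.02 reads in all 8 columns) were recovered from the values with GENCODE M21 lengths. Where no annotated transcript gave whole reads (Snhg12, Snhg4, Dancr), the smallest length that did was taken, so their read numbers are uncertain by a factor. Those reads gave depth and intervals, and an alternative.

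The level is the mean of both alleles. Allele differences of log2(RPKM + 0.1) within each library, which pairs the alleles of 1 RNA, were tested with limma 3.58.1 in R 4.3.3 for genes whose allele means sum to at least 1 RPKM, with Benjamini-Hochberg adjustment over all genes. The test was tried on simulated data. Medians of families and pairs of genes were compared by exact sign-flip tests. Named were all members, the small RNA genes inside them, the protein-coding gene with the nearest start, and lists of markers, noncoding RNAs and snoRNA hosts. The members and lists were chosen with earlier results of these data known. Alternatives were another pseudocount, no filter, no replicate block, a variance trend, undivided reads, regional medians, other lengths and scalings, and each library left out.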

Additional observations from a re-analysis of the deposited data

Results flagged for a closer look

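In 11 of 60 sets of 4 libraries (30 levels and 30 allele differences), 1 library lay farther from the rest than the 95% critical value of Dixon's test allows. Chance passes about 1 in 20, or 3 of 60. Replicate 4, the shallowest library, was the outlying one in 7 of the 11. In allele difference it gave -1.19 for Platr5 against -1.11 in the others, 1.17 for Platr8 against 0.22 to 0.34, -1.77 for Snhg14 against -1.65 to -1.63, and -0.39 for Snhg4 against -0.15 to -0.12. It also gave 1.14 for Snhg7 against 1.35 to 1.38, and -0.97 for Snhg9 against 0.043 to 0.24. The level of Snhg7 in replicate 4 was 683 RPKM, against 617 to 622 RPKM.

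The other 4 were in different libraries. Replicate 3 had 7.72 RPKM for Platr20 against 5.91 to 6.02 RPKM, an allele difference of 0.65 for Snhg12 against 0.69 to 0.70, and of -0.31 for Tug1 against -0.13 to -0.091. Replicate 2 had -0.63 for Snhg11 against -0.51 to -0.50.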

How the results depend on the processing

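The calls by allele were 14 towards S129 and 10 towards CAST, and kept within 12 to 16 and 8 to 10 over all alternatives. Without the replicate block, which pairs the alleles of a library, they were 12 and 8. Dancr, Snhg20, Snhg4, Snhg6 and Tug1 crossed the threshold in some alternatives, and Platr8 without replicate 4. Direction turned only for members not called, which were Platr14 (-0.10 against its region and -0.0012 to 0.035 when 1 library was left out), Snhg8 (0.0066 with undivided reads and 0.70 against its region) and Snhg9 (-0.28 to 0.13 when 1 library was left out). Over the S129 allele alone the Platr median was 12.3 RPKM and the Snhg to Platr difference 3.55, and over CAST alone 4.22 RPKM and 4.86. With all exons as length the Snhg median was 62.7 RPKM and the difference 3.10. Without members under 0.1 RPKM the Platr median was 18.4 RPKM and the difference 2.87. Chosen after seeing the data, leaving out Snhg7 gave 3.88, and scaling to 1 sum gave 9 members with replicates 1 and 4 highest. Low reads limit Platr30, Platr8, Snhg9 and the CAST allele of Platr26.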
